A study of Mus musculus with 4 samples.

Results

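The transcripts of 42 genes of glycolysis, lactate handling and the response to low oxygen were compared between Hdac3cKO and Hdac3flox/flox mice. The members were the rows of the deposited table that bear the symbols of a fixed list, 42 genes among 28611 rows, and they were sorted into 8 roles. Hdac3cKO mice carried floxed Hdac3 alleles (Hdac3flox/flox) together with Foxl2-CreERT2, a tamoxifen-dependent Cre made in granulosa cells (GCs), the somatic cells that surround the oocyte. Hdac3flox/flox mice carried the same floxed alleles without Cre. All mice were C57BL/6 females given tamoxifen once when 18 days old (20 mg per kg) and collected when 24 days old, and each genotype had 2 libraries, from 2 mice by the series' design. As the controls lacked Foxl2-CreERT2, the loss of Hdac3 and the presence of Cre cannot be told apart. PMSG, a gonadotropin that drives follicle growth, was used with these genotypes elsewhere in the study, and whether the mice of these libraries received it is not stated. In this model the deletion does not reach every follicle. The labels name GCs, whereas the extraction protocol starts from ovaries, and in such bulk RNA fewer cells of a type and less RNA per cell cannot be told apart.

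Glycolysis splits glucose into pyruvate, which lactate dehydrogenase turns into lactate for export. In follicles, GCs take up glucose and hand pyruvate and lactate to the oocyte, which uses glucose poorly. In low oxygen the transcription factors HIF-1α and HIF-2α escape the prolyl hydroxylases that mark them for degradation, pair with ARNT and raise many genes of this set through short DNA letters known as the hypoxia response element.

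The library totals were 18452073 and 17621129 reads in Hdac3cKO, against 18310258 and 18346828 reads in Hdac3flox/flox. Hdac3 itself, summed over the whole gene and so with any transcripts that lost only the floxed part, was at 19.4 and 19.2 RPKM (reads scaled to gene length and library total) in Hdac3cKO and 24.4 RPKM in both Hdac3flox/flox libraries. Markers of GCs were abundant, with a summed level of 10696 and 10295 RPKM over 12 genes in Hdac3cKO, against 9189.6 and 8710.0 RPKM in Hdac3flox/flox. Inha alone gave 6094 and 5776 RPKM of these sums in Hdac3cKO, against 5279.7 and 4946 RPKM in Hdac3flox/flox, and of the 12 markers 6 were called higher and 3, Foxl2, Fshr and Esr2, lower. Markers of other ovarian cells were also present, and several of their lists moved with genotype. The 9 theca cell markers summed to 2879.5 and 2822 RPKM in Hdac3cKO, against 3502 and 3289.7 RPKM in Hdac3flox/flox, with 1 called higher and 5 lower. Hsd3b1 alone gave 1918 and 1949.9 RPKM of these sums in Hdac3cKO, against 2355 and 2237 RPKM in Hdac3flox/flox. The 12 endothelial markers summed to 113 and 112 RPKM in Hdac3cKO, against 151 and 148 RPKM in Hdac3flox/flox, with 8 of 11 tested called lower and 0 called higher by limma (0 at an unadjusted p under 0.05 and 0 by limma voom). Called lower were 5 of 9 stroma markers tested, 3 of 7 smooth muscle and pericyte markers and 3 of 8 surface epithelium markers. Of all genes tested, 11.0% were called lower. A positive log2 fold change was seen for 2 of these stroma markers, 1 smooth muscle and pericyte marker and 4 surface epithelium markers. The surface epithelium sums overlapped, at 40.1 and 49.9 RPKM in Hdac3cKO and 44.7 and 48.6 RPKM in Hdac3flox/flox. The 10 oocyte markers summed to 257 and 229 RPKM in Hdac3cKO, against 211 and 212 RPKM in Hdac3flox/flox, and 9 had a positive log2 fold change, of which 1, Zp2, was called. Of 7 leukocyte markers tested limma called 0 (1 higher and 2 lower at an unadjusted p under 0.05, and 1 lower by limma voom). Red blood cell markers summed to 140.3 and 136 RPKM in Hdac3cKO, against 148 and 139 RPKM in Hdac3flox/flox, and 0 of 5 tested were called by limma (0 at an unadjusted p under 0.05 and 0 by limma voom). The part of these cell types in the values of the members was not tested.

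Of the 15 glycolytic enzymes 7 rose and 2 fell in Hdac3cKO, the largest called change being that of Hk2 at 1.46-fold. Egln3, an oxygen sensor, rose 3.47-fold and Gpd1, of a side branch of glycolysis, 2.95-fold. A gene was called when limma, fitted on log2(RPKM + 0.1) over the 15528 genes that reached 0.5 RPKM in 2 or more libraries, gave a Benjamini-Hochberg adjusted p under 0.05. Of 41 members tested, 21 were called, which is 51.2%, against 18.7% of all genes tested. The members were chosen with earlier results of these data known, so this share and those below describe the list and test nothing. Members called higher in Hdac3cKO numbered 15, or 36.6%, against 7.68% of all genes, and members called lower numbered 6, or 14.6%, against 11.0% of all genes. Among the 25 members with a mean of at least 10 RPKM, 11 were called higher, against 14.6% of all genes at such a level, and 3 were called lower, against 14.3% of such genes. The counts of the 15 glycolytic enzymes and of single roles below stand beside the same shares. They rest on few genes and were not tested. The libraries of the genotypes did not overlap for 35 of 41 members, 23 with Hdac3cKO higher and 12 with Hdac3cKO lower, which is 85.4%, against 64.5% of all genes. The median log2 fold change was 0.14 over the members tested, against −0.04 over all genes tested. The changes were mostly small, with 18 of the 21 called members at a log2 fold change under 0.5 in size. With median-of-ratios scaling 19 members were called higher and 2 lower, against 1626 and 1355 of all genes, in place of 1193 and 1711 of all genes with the library totals. With each library left out in turn, the log2 fold change of all 21 called members kept its sign. All calls of members were lost without either Hdac3cKO library, and part of them without either Hdac3flox/flox library. A genotype left with 1 library shows no spread of its own. Egln3, Pgam1, Ldha, Pfkfb3 and Gpd1 were called under each of 10 alternatives that kept all 4 libraries.

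**Figure D1:**
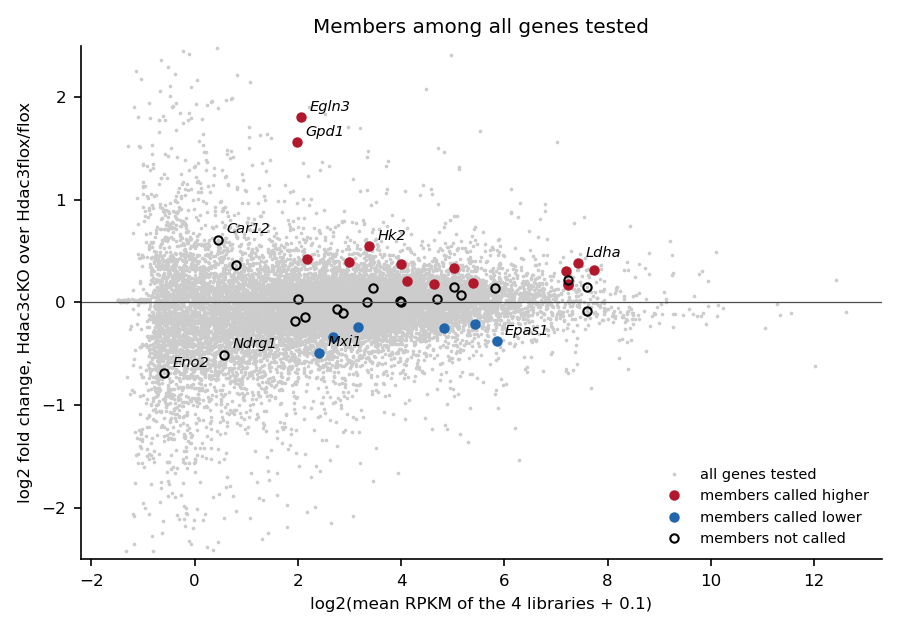
Each point is a gene, with log2 of its mean RPKM over 4 libraries plus 0.1 on the x axis and its log2 fold change, Hdac3cKO over Hdac3flox/flox, on the y axis. Grey points are all genes tested (79 lie outside the plotted range), filled red and blue points are the 15 and 6 members called higher and lower, and open points are the 20 members not called. Egln3 and Gpd1 stand above the other members, and Ldha is among the called members of high level.

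**Figure D2:**
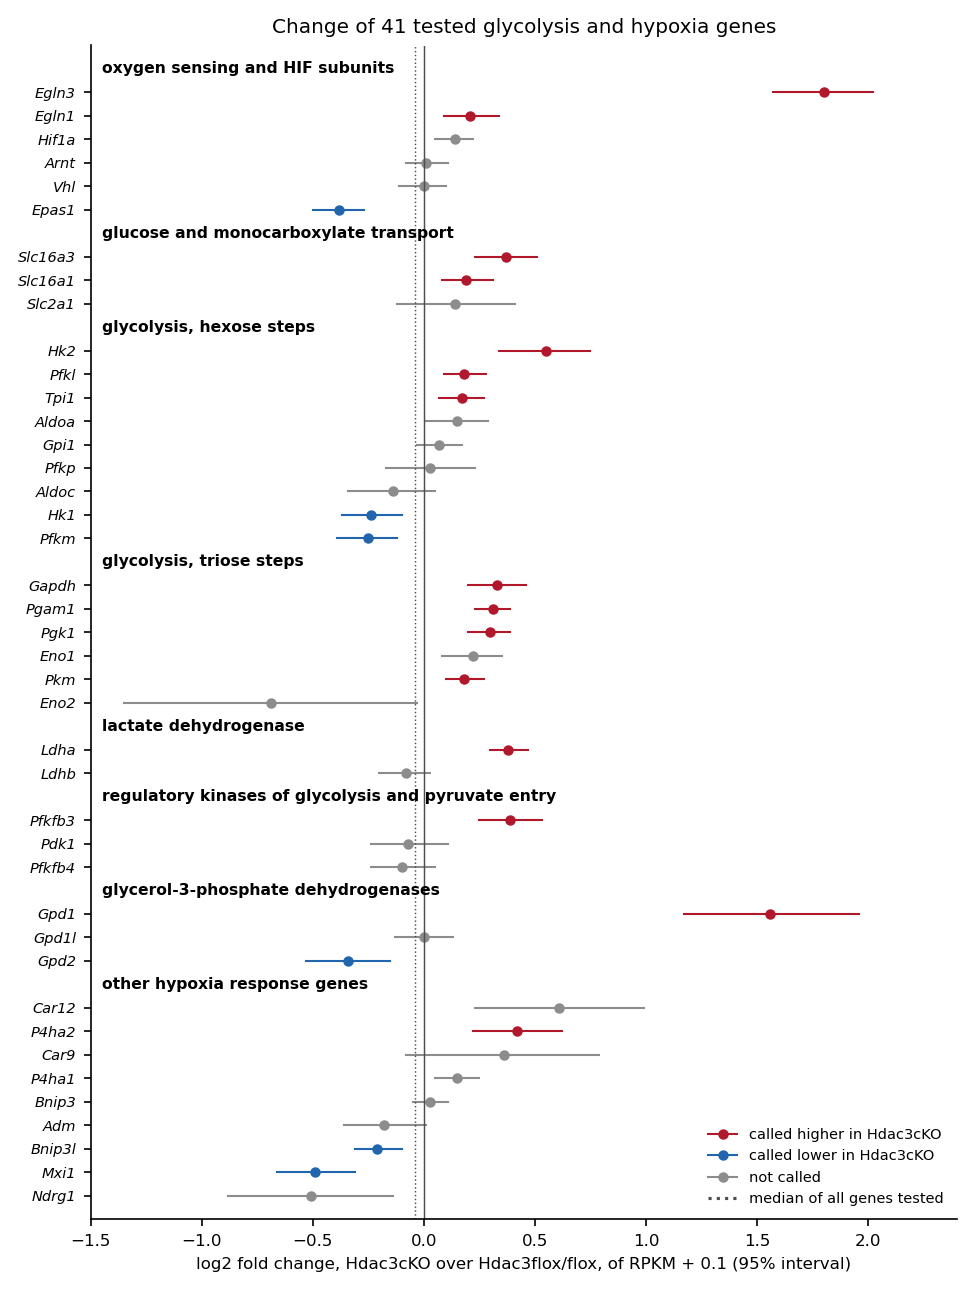
The log2 fold change, Hdac3cKO over Hdac3flox/flox, of 41 tested members is drawn with its 95% interval from limma, grouped by role. Red marks members called higher, blue members called lower and grey members not called, and the dotted line is the median of all genes tested, −0.04. Egln3 at 1.80 and Gpd1 at 1.56 lie apart from the rest.

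Promoters were read for the called members with a log2 fold change of at least 0.5 in size, to show which of them hold the letters of the hypoxia response element just before the transcription start. These members were Egln3, Hk2 and Gpd1, and a sequence was at hand for Egln3 and Hk2. Ldha was added after its values and letters were seen, because it is the called member with the most matches. Each run is the 250 bases before the RefSeq start on GRCm38.p6, 5′ to 3′ on the gene's own strand, at chr12:54203875-54204124 (−) for Egln3, chr6:82774455-82774704 (−) for Hk2 and chr7:46845554-46845803 (+) for Ldha, and 0 annotated exons lie over any of these windows, although that of Ldha lies inside the annotated Ldha gene, downstream of its first annotated base. Capitals mark ACGTG or GCGTG on either strand, so that CACGT and CACGC are the same letters read on the other strand, and CACGTG counts once on each strand.
Egln3: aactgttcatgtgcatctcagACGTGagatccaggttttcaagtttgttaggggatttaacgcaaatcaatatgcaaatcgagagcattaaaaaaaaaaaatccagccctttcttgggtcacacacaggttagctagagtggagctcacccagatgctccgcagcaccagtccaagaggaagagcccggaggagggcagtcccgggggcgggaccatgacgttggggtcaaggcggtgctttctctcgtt
Hk2: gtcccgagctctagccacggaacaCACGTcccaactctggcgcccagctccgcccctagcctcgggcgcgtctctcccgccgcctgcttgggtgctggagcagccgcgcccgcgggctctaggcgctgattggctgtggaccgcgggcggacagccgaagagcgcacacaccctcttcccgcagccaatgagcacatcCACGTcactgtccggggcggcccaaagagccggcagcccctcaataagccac
Ldha: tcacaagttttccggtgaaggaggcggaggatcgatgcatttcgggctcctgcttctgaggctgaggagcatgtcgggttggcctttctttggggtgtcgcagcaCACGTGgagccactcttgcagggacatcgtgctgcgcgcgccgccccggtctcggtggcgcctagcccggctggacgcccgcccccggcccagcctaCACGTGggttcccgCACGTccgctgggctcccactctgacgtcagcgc
Egln3 held 1 match, 229 bases before the start. Hk2 held 2 matches, at 226 and 52 bases before the start, both as CACGT. Ldha held 5 matches, of which 4 lie in 2 copies of CACGTG near 145 and 48 bases before the start and 1 lies 34 bases before it. A second RefSeq start of Ldha, not printed, has a window with 1 match.

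RefSeq promoters were matched for 38 of the 42 members, and Bnip3l, Epas1, Gpd1 and Ndrg1 had none. Counting every 250-base window of a gene, 33 of 38 members held at least 1 match, which is 86.8%, against 41.5% of all 27025 genes with a window. Of all genes tested here, a match was held by 64.5% of those called higher, 56.7% of those called lower and 60.3% of those not called. Members with a match numbered 13 of 14 called higher, 4 of 4 called lower and 15 of 19 not called, so the letters were found in members of every outcome. At least 3 matches in 1 window were found in 12 of the 38 members, against 7.5% of all genes with a window, each gene counted by its richest window. The 7.5% includes genes not tested here, and no such share was taken over tested genes alone. A match describes the letters and is not a bound site.

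Oxygen sensing held the most changed member, and of its 6 members 2 rose and 1 fell. Egln3 encodes a HIF prolyl hydroxylase that is itself raised in low oxygen, and it was measured at 6.68 and 6.08 RPKM in Hdac3cKO (328 and 285 reads), against 1.81 and 1.72 RPKM in Hdac3flox/flox (88 and 84 reads). Both Hdac3cKO libraries were high and close to each other, and the genotypes did not overlap. The log2 fold change was 1.80 (standard error, SE, 0.086; limma adjusted p = 0.00354), and the summed reads, scaled to the library totals, stood in a ratio of 3.62 (exact 95% interval 3.05 to 4.31, for counting error only). The gene lies on chromosome 12 of GRCm38 from 54178981 to 54203860. With 1 library left out its log2 fold change was between 1.73 and 1.86, with an adjusted p from 0.0105 to 0.0600, and it was past the threshold without either Hdac3flox/flox library and not without either Hdac3cKO library.

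Egln1, the prolyl hydroxylase that acts most on HIF-1α in normal oxygen, rose less, with 17.8 and 19.0 RPKM in Hdac3cKO, against 15.8 and 15.9 RPKM in Hdac3flox/flox (log2 fold change 0.21, limma adjusted p = 0.0448). Egln3 thereby made up 27.3 and 24.2% of the summed level of the pair in Hdac3cKO, against 10.2 and 9.75% in Hdac3flox/flox. Epas1, which encodes HIF-2α and is prominent in endothelium, was the only called member of this role that fell. It had 51.1 and 48.7 RPKM in Hdac3cKO, against 63.3 and 67.1 RPKM in Hdac3flox/flox, a log2 fold change of −0.38 (SE 0.045, limma adjusted p = 0.0129). Beside it, the 12 endothelial markers summed to 113 and 112 RPKM in Hdac3cKO and 151 and 148 RPKM in Hdac3flox/flox. All 11 tested had a negative log2 fold change with a median of −0.39, and 3 of them, Kdr, Flt1 and Emcn, were not called. The marker Vwf, under the filter, went the other way, with 101 and 87 reads in Hdac3cKO, against 60 and 76 reads in Hdac3flox/flox. The part of endothelial cells in the Epas1 value was not tested. With 1 library left out the log2 fold change of Epas1 was between −0.43 and −0.34 and its adjusted p from 0.0274 to 0.0814, under 0.05 only without either of the Hdac3flox/flox libraries.

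Hif1a, which encodes HIF-1α, had 59.4 and 59.0 RPKM in Hdac3cKO and 55.0 and 52.7 RPKM in Hdac3flox/flox. The libraries did not overlap, yet it missed the threshold (log2 fold change 0.14, limma adjusted p = 0.0569). Hif1a made up 53.7 and 54.8% of the summed level of the HIF alpha pair in Hdac3cKO, against 46.5 and 44.0% in Hdac3flox/flox, so the more abundant alpha transcript was Hif1a in Hdac3cKO and Epas1 in Hdac3flox/flox. Arnt, the partner subunit, and Vhl, which recognises hydroxylated HIF for degradation, overlapped between genotypes at 15.5 to 16.1 RPKM. Their 95% intervals on the log2 scale were −0.08 to 0.11 for Arnt and −0.11 to 0.10 for Vhl.

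Among the 3 members that are transporters, both carriers of lactate and pyruvate rose and the glucose transporter was not called. Of 11 other genes of sugar and monocarboxylate transport tested, 9 had a negative log2 fold change, 1 had a positive one and Slc2a10 was at −0.00. Of the 11, 1 was called lower. Slc16a3 encodes MCT4, a lactate exporter of glycolytic cells. It had 18.5 and 17.5 RPKM in Hdac3cKO, against 14.3 and 13.4 RPKM in Hdac3flox/flox, without overlap (log2 fold change 0.37, SE 0.054, limma adjusted p = 0.0197). Slc16a1, which encodes MCT1, had 45.6 and 43.4 RPKM in Hdac3cKO, against 39.8 and 38.0 RPKM in Hdac3flox/flox, a log2 fold change of 0.19 (limma adjusted p = 0.0449). Slc2a1, which encodes the glucose carrier GLUT1, had 11.1 and 11.8 RPKM in Hdac3cKO and 11.4 and 9.47 RPKM in Hdac3flox/flox, and its log2 fold change had a 95% interval from −0.12 to 0.41. The Hdac3flox/flox libraries of Slc2a1 differed more from each other than the genotypes' means did.

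In the upper part of glycolysis, from glucose to triose phosphates, members of one reaction moved in opposite directions. Of 9 members, 3 rose, 2 fell and 4 were not called. Hk2, the hexokinase that insulin and low oxygen raise, had 11.5 and 13.0 RPKM in Hdac3cKO (1271 and 1371 reads), against 8.63 and 8.12 RPKM in Hdac3flox/flox (943 and 889 reads). Both Hdac3cKO libraries were above both Hdac3flox/flox libraries, with a log2 fold change of 0.55 (SE 0.077, limma adjusted p = 0.0188). The gene lies on chromosome 6 from 82725025 to 82774454. Hk1, the hexokinase of most tissues, fell, with 8.24 and 7.99 RPKM in Hdac3cKO, against 9.36 and 9.81 RPKM in Hdac3flox/flox (log2 fold change −0.24, limma adjusted p = 0.0435). Hk2 made up 58.3 and 62.0% of the summed hexokinase level in Hdac3cKO, against 48.0 and 45.3% in Hdac3flox/flox.

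Phosphofructokinase, which commits glucose to glycolysis, showed the same split. Pfkl, the liver type, rose to 26.4 RPKM in both Hdac3cKO libraries, against 23.6 and 22.8 RPKM in Hdac3flox/flox (log2 fold change 0.18, limma adjusted p = 0.0335). Pfkm, the muscle type, fell to 25.1 and 26.8 RPKM in Hdac3cKO, against 31.8 and 30.2 RPKM in Hdac3flox/flox (log2 fold change −0.25, limma adjusted p = 0.0376). Pfkp, the platelet type, was at 3.81 and 4.05 RPKM in Hdac3cKO and 3.97 and 3.75 RPKM in Hdac3flox/flox, and as it shares up to 748 bases with Pitrm1 on the other strand in a kit that does not keep strand, its value is uncertain. With median-of-ratios scaling Hk1 (limma adjusted p = 0.0661) and Pfkm (limma adjusted p = 0.0539) were no longer called. Tpi1, which interconverts the triose phosphates, rose by a log2 fold change of 0.17 (limma adjusted p = 0.0482), with 164 and 155 RPKM in Hdac3cKO, against 143 and 139.5 RPKM in Hdac3flox/flox. Aldoa, the main aldolase here, had 212 and 199 RPKM in Hdac3cKO and 192 and 178 RPKM in Hdac3flox/flox and was not called (log2 fold change 0.15, limma adjusted p = 0.119), nor were Gpi1 (95% interval −0.03 to 0.17) and the brain aldolase Aldoc (95% interval −0.34 to 0.05). A second row named Aldoa, a short annotated locus, was under the filter with 7 and 7 reads in Hdac3cKO and 3 and 3 reads in Hdac3flox/flox, a ratio of 2.37 with an exact 95% interval from 0.856 to 7.53.

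In the lower part of glycolysis, from triose phosphate to pyruvate, 4 of 6 members rose and 0 were called lower by limma. Of these 6 members 1, Eno2, was lower at an unadjusted p under 0.05 and was called by limma voom. Among all genes with a mean of at least 10 RPKM, 14.6% were called higher, and of the 4 that rose Gapdh has an uncertain value. Pgam1, phosphoglycerate mutase, had the smallest p of the role and, in Hdac3cKO, the highest level of any member. It had 241 and 233 RPKM in Hdac3cKO (8159 and 7507 reads), against 193 and 189 RPKM in Hdac3flox/flox (6467 and 6356 reads), without overlap. The log2 fold change was 0.31 (SE 0.030, limma adjusted p = 0.00946), and the read ratio was 1.24 (exact 95% interval 1.21 to 1.27, for counting error only). Pgk1, phosphoglycerate kinase, had 162 and 159 RPKM in Hdac3cKO, against 135 and 127 RPKM in Hdac3flox/flox (log2 fold change 0.30, limma adjusted p = 0.0146). Pkm, pyruvate kinase, had 161 and 157 RPKM in Hdac3cKO, against 143 and 137 RPKM in Hdac3flox/flox (log2 fold change 0.18, limma adjusted p = 0.0277). The table sums the isoforms of Pkm, so its M1 and M2 forms were not separated.

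Gapdh, the triose phosphate dehydrogenase often used as a loading reference, was called higher, with 35.8 and 36.3 RPKM in Hdac3cKO, against 27.5 and 29.9 RPKM in Hdac3flox/flox (log2 fold change 0.33, limma adjusted p = 0.0219). Its value is uncertain, because 106 near-identical copies are annotated and the 65 with a row held 62.8 to 68.0% of the joint reads. With their reads added, the log2 fold change was 0.19 (limma adjusted p = 0.0341). Eno1, the main enolase, had 169 and 155 RPKM in Hdac3cKO and 142 and 137 RPKM in Hdac3flox/flox, just short of the threshold (limma adjusted p = 0.0503), and with the reads of its copies, Eno1b among them, it had an adjusted p of 0.0465 from limma. Eno2, the neuronal enolase, passed the filter only through Hdac3flox/flox and had 36 and 33 reads in Hdac3cKO, against 64 and 60 reads in Hdac3flox/flox (log2 fold change −0.69, limma adjusted p = 0.125). Over all 15 glycolytic enzymes the summed level was 1261 and 1213 RPKM in Hdac3cKO, against 1092 and 1053 RPKM in Hdac3flox/flox.

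**Figure D3:**
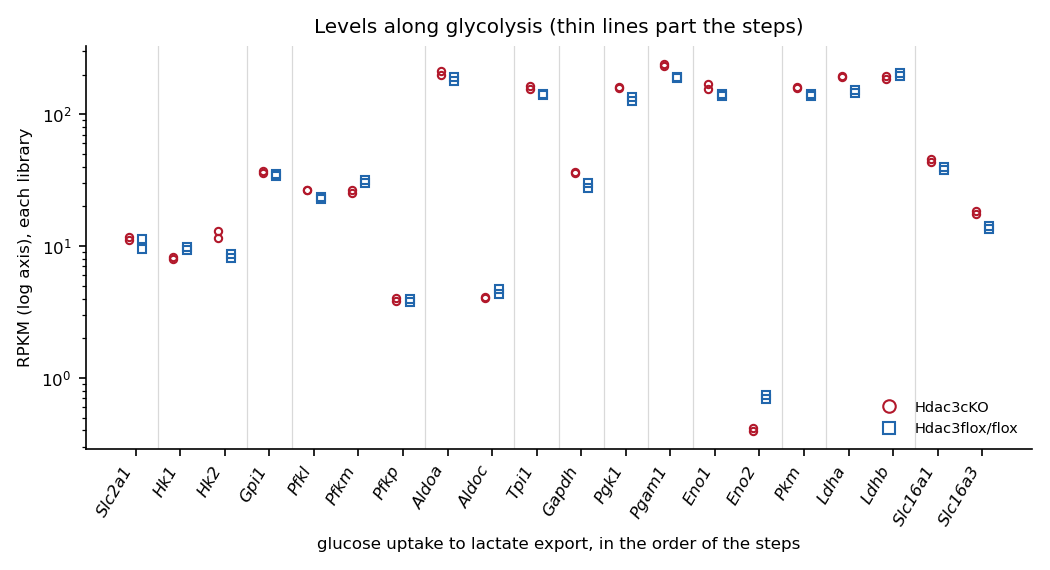
The RPKM of each library is drawn on a log axis for 20 members in the order of the pathway, from glucose uptake to lactate export, with Hdac3cKO as circles and Hdac3flox/flox as squares. From Tpi1 to Ldha, apart from the scarce Eno2, both circles lie above both squares, while Hk1, Pfkm, Aldoc, Eno2 and Ldhb show the reverse.

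Of the lactate dehydrogenase subunits, A rose and B was not called. Ldha, whose subunit favours lactate production, had 195 and 192 RPKM in Hdac3cKO (11929 and 11213 reads), against 152 and 146 RPKM in Hdac3flox/flox (9213 and 8838 reads). The libraries did not overlap, and the log2 fold change was 0.38 (SE 0.032, limma adjusted p = 0.00796) with a read ratio of 1.30 (exact 95% interval 1.28 to 1.33, for counting error only). Ldhb, whose subunit favours the use of lactate, had 194 and 184 RPKM in Hdac3cKO and 194 and 206 RPKM in Hdac3flox/flox and was not called, with a 95% interval from −0.20 to 0.03 on the log2 scale. Ldha made up 50.2 and 51.2% of the summed level of both in Hdac3cKO, against 43.9 and 41.4% in Hdac3flox/flox. With 1 library left out the log2 fold change of Ldha was between 0.35 and 0.41 and its adjusted p from 0.0186 to 0.0685, over 0.05 without either Hdac3cKO library.

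Of the regulatory kinases only Pfkfb3 was called. Pfkfb3 makes fructose 2,6-bisphosphate, the activator of phosphofructokinase, and had 8.93 and 8.88 RPKM in Hdac3cKO, against 6.60 and 6.94 RPKM in Hdac3flox/flox (log2 fold change 0.39, SE 0.052, limma adjusted p = 0.0167). Its relative Pfkfb4 had 6.87 and 7.08 RPKM in Hdac3cKO and 7.29 and 7.66 RPKM in Hdac3flox/flox, with a 95% interval from −0.24 to 0.05 on the log2 scale. Pfkfb3 made up 56.5 and 55.6% of the summed level of the pair in Hdac3cKO, against 47.5% in both Hdac3flox/flox libraries. Pdk1, a kinase that inhibits pyruvate dehydrogenase and that HIF-1 raises, overlapped between genotypes. It had 6.71 and 6.26 RPKM in Hdac3cKO and 6.99 and 6.61 RPKM in Hdac3flox/flox (95% interval −0.24 to 0.11 on the log2 scale).

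The enzymes of the glycerol phosphate shuttle moved apart. Gpd1 encodes the cytosolic glycerol-3-phosphate dehydrogenase, which links glycolysis to glycerolipid synthesis and is abundant in fat cells. It had 6.57 and 5.10 RPKM in Hdac3cKO (359 and 266 reads), against 1.79 and 2.01 RPKM in Hdac3flox/flox (97 and 109 reads). The genotypes did not overlap, although the Hdac3cKO libraries differed from each other more than the Hdac3flox/flox libraries did. The log2 fold change was 1.56 (SE 0.15, limma adjusted p = 0.00930), and the read ratio was 3.08 (exact 95% interval 2.63 to 3.63, for counting error only). The gene lies on chromosome 15 from 99717515 to 99725005 and shares up to 226 bases of an exon with Gm16537 on the other strand, whose own row held 2 and 0 reads in Hdac3cKO, against 2 and 4 reads in Hdac3flox/flox. Among other called members, Hk1, Pfkm, Tpi1, Gapdh, Pkm, Gpd2 and Mxi1 share exon stretches of 18 to 454 bases with other genes, where the origin of a read is uncertain. With 1 library left out its log2 fold change was between 1.38 and 1.74 and its adjusted p from 0.0274 to 0.0670, over 0.05 without either Hdac3cKO library.

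Fat cell markers did not move in one direction in the same libraries. Of 14 such markers 13 had a row and 9 were tested, with 2 called higher and 4 lower. Their summed level was 80.5 and 87.6 RPKM in Hdac3cKO, against 99.8 and 99.1 RPKM in Hdac3flox/flox. Of these sums Pparg gave 31.1 and 31.8 RPKM in Hdac3cKO, against 30.7 and 27.6 RPKM in Hdac3flox/flox. Pnpla2 gave 23.5 and 22.7 RPKM in Hdac3cKO, against 28.0 and 29.6 RPKM in Hdac3flox/flox. Adipoq had 9 and 11 reads in Hdac3cKO, against 0 and 0 in Hdac3flox/flox, and Cidec had 2 and 8 reads in Hdac3cKO, against 0 and 0 in Hdac3flox/flox. Retn had 7 and 4 reads in Hdac3cKO, against 0 and 1 in Hdac3flox/flox. Adipoq, Cidec and Retn were under the filter. Cfd had 39 and 114 reads in Hdac3cKO, against 2 and 0 in Hdac3flox/flox, and Car3 had 44 and 94 reads in Hdac3cKO, against 5 and 1 in Hdac3flox/flox. Cfd and Car3 were called higher, but they passed the filter only through Hdac3cKO, where they were high. Plin1, called lower, had 662 and 645 reads in Hdac3cKO, against 1145 and 1000 in Hdac3flox/flox. Plin4, also called lower, passed the filter only through Hdac3flox/flox. The part of fat cells in the Gpd1 value was not tested.

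Gpd2, the mitochondrial enzyme of the shuttle, fell, with 5.69 and 5.45 RPKM in Hdac3cKO, against 6.75 and 7.42 RPKM in Hdac3flox/flox (log2 fold change −0.34, SE 0.070, limma adjusted p = 0.0399). With median-of-ratios scaling it was no longer called (limma adjusted p = 0.0513). Gpd1l, a relative of Gpd1, overlapped between genotypes, with 9.77 and 10.3 RPKM in Hdac3cKO and 9.93 and 10.1 RPKM in Hdac3flox/flox and a 95% interval from −0.13 to 0.13 on the log2 scale. Gpd1 made up 40.2 and 33.2% of the summed level of the pair in Hdac3cKO, against 15.3 and 16.6% in Hdac3flox/flox.

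**Figure D4:**
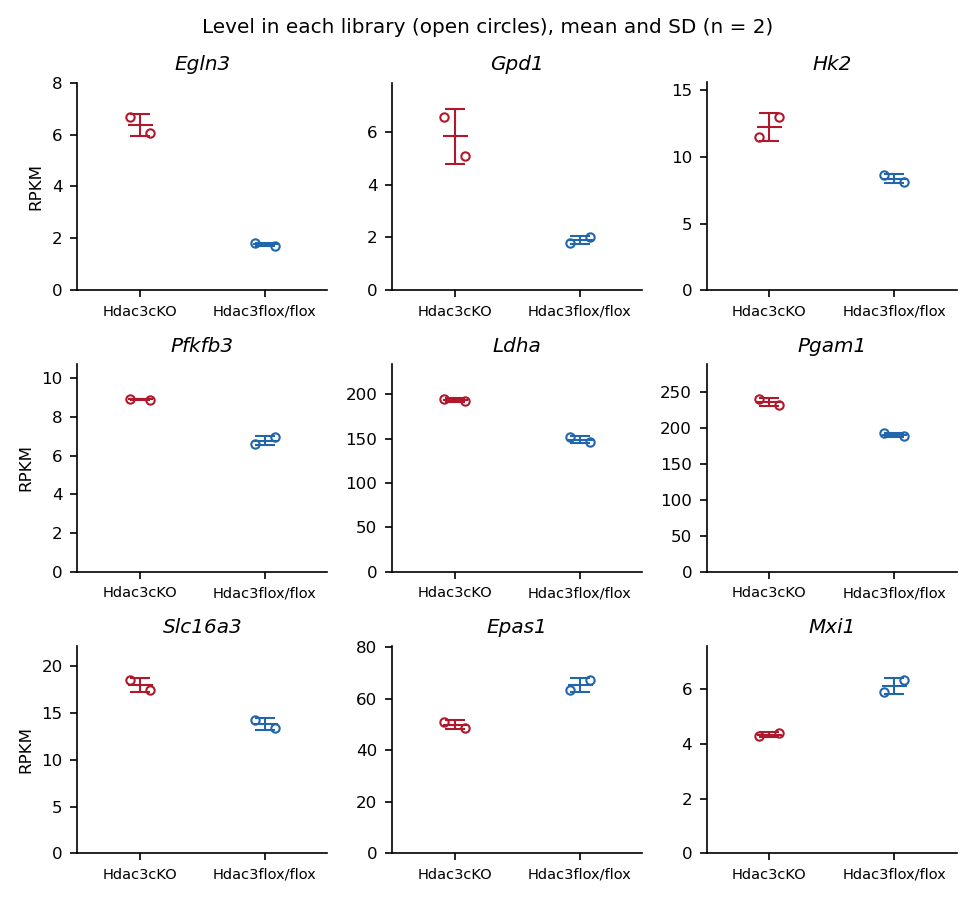
The RPKM of 9 called members is drawn for each library as an open circle, with the mean and SD (n = 2) of Hdac3cKO on the left and Hdac3flox/flox on the right and every axis from 0. Egln3 and Gpd1 are separated most, at means of 6.38 and 5.83 RPKM in Hdac3cKO, against 1.76 and 1.90 RPKM in Hdac3flox/flox, while Epas1 and Mxi1 are lower in Hdac3cKO.

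**Figure D5:**
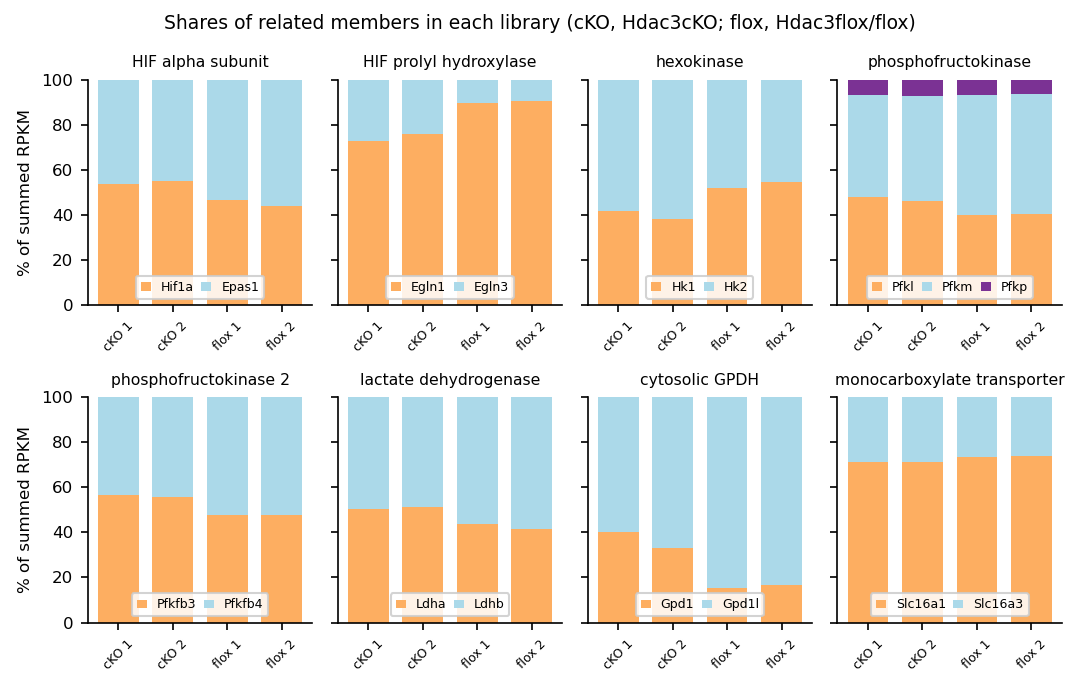
Each stacked bar gives the percentage of the summed RPKM that each related member holds in 1 library, with Hdac3cKO replicates left of Hdac3flox/flox replicates. The share of Hk2, Pfkl, Pfkfb3, Ldha, Egln3, Gpd1, Hif1a and Slc16a3 is larger in both Hdac3cKO libraries than in either Hdac3flox/flox library.

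The other hypoxia response genes had no common direction. Of 10 members, 1 rose, 2 fell, 6 were not called and 1 was under the filter. Mxi1, which encodes an antagonist of MYC that HIF raises, had the smallest p and fell, with 4.28 and 4.40 RPKM in Hdac3cKO (444 and 436 reads), against 5.91 and 6.33 RPKM in Hdac3flox/flox (608 and 653 reads). Both Hdac3cKO libraries were below both Hdac3flox/flox libraries (log2 fold change −0.49, SE 0.066, limma adjusted p = 0.0174). Bnip3l, a mitophagy receptor, fell as well, with 41.1 and 38.9 RPKM in Hdac3cKO, against 45.6 and 46.7 RPKM in Hdac3flox/flox (log2 fold change −0.21, limma adjusted p = 0.0353). The near-identical Bnip3l-ps held 5.19 to 5.79% of their joint reads, and with these added the adjusted p was 0.0334 from limma. With median-of-ratios scaling Bnip3l was no longer called (limma adjusted p = 0.0593). Its relative Bnip3 was within 25.4 to 26.1 RPKM in all 4 libraries, with a 95% interval from −0.05 to 0.11 on the log2 scale.

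P4ha2, a subunit of the collagen prolyl hydroxylase, was the member of this role that rose, with 576 and 571 reads in Hdac3cKO, against 451 and 415 reads in Hdac3flox/flox (log2 fold change 0.42, SE 0.075, limma adjusted p = 0.0294). Its more abundant relative P4ha1 had 33.6 and 34.4 RPKM in Hdac3cKO and 31.2 and 30.0 RPKM in Hdac3flox/flox and missed the threshold (limma adjusted p = 0.0558). Car12, a membrane carbonic anhydrase, had 206 and 218 reads in Hdac3cKO, against 136 and 137 reads in Hdac3flox/flox. Its log2 fold change of 0.61 was larger than that of Hk2, but it was not called (SE 0.14, limma adjusted p = 0.0525). Car9, the other membrane carbonic anhydrase, had 89 and 67 reads in Hdac3cKO and 57 and 64 reads in Hdac3flox/flox, with a 95% interval from −0.08 to 0.79 on the log2 scale. Car9 shares up to 163 bases of an exon with the antisense gene Gm12454, which had 12 and 14 reads in Hdac3cKO, against 30 and 25 reads in Hdac3flox/flox, and reads in that stretch cannot be assigned without strand.

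Ndrg1, a stress-response gene of differentiation, and Adm, which encodes the vasodilator adrenomedullin, were not called. Ndrg1 had 131 and 137 reads in Hdac3cKO, against 189 and 210 reads in Hdac3flox/flox (log2 fold change −0.51, SE 0.14, limma adjusted p = 0.0721). Adm had 106 and 99 reads in Hdac3cKO, against 121 and 115 reads in Hdac3flox/flox (log2 fold change −0.18, limma adjusted p = 0.160). Ankrd37, an ankyrin-repeat gene raised in low oxygen, was under the filter with 7 and 8 reads in Hdac3cKO and 10 and 18 reads in Hdac3flox/flox. The read ratio was 0.544 with an exact 95% interval from 0.270 to 1.05, so no difference was detectable at this depth, and Ankrd37 overlaps Lrp2bp and Ufsp2 on the other strand.

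The levels of the members spanned a wide range on the RPKM scale, which is scaled to gene length. In Hdac3cKO the highest means were 237 RPKM for Pgam1, 205 for Aldoa, 194 for Ldha, 189 for Ldhb, 162 for Eno1 and 161 RPKM for Pgk1. In Hdac3flox/flox the order began with Ldhb at 200.0 ± 8.52 RPKM, followed by Pgam1 at 191 ± 2.61 and Aldoa at 185 ± 9.76 RPKM (SD, n = 2), and the differences between these neighbours were about as large as their SD. The lowest members tested were Eno2, Car12, Ndrg1 and Car9, all under 2.1 RPKM in every library.

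Genes of neighbouring pathways were counted from 7 lists. Of 83 tested genes, 8 were called higher and 8 lower, with a median log2 fold change of −0.01. Of all genes tested, 7.68% were called higher and 11.0% lower, so the 7 lists together were near these shares. The counts of single lists below stand beside the same shares, rest on few genes and were not tested. Of 28 further genes induced in hypoxia, 5 rose and 3 fell. Ddit4, an inhibitor of mTORC1, had 128 and 135 RPKM in Hdac3cKO, against 76.0 and 74.1 RPKM in Hdac3flox/flox (log2 fold change 0.81, limma adjusted p = 0.00337). Bhlhe40, a transcriptional repressor, had 12.7 and 11.6 RPKM in Hdac3cKO, against 6.86 and 6.96 RPKM in Hdac3flox/flox (log2 fold change 0.80, limma adjusted p = 0.00686). Angptl4, a lipase inhibitor that PPARs and HIF raise, fell to 13.6 and 14.0 RPKM in Hdac3cKO, against 30.1 and 30.5 RPKM in Hdac3flox/flox (log2 fold change −1.13, limma adjusted p = 0.00267). Vegfa, the angiogenic factor, rose by a log2 fold change of 0.16 only (limma adjusted p = 0.0302), and it was named after its value was seen.

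Of 9 other genes of oxygen sensing and HIF, 1 fell and 0 rose by limma (2 higher at an unadjusted p under 0.05 and 1 by limma voom). Arnt2, a relative of Arnt, had 2.62 and 2.58 RPKM in Hdac3cKO, against 5.50 and 6.27 RPKM in Hdac3flox/flox (log2 fold change −1.14, limma adjusted p = 0.00724). Of 18 genes of gluconeogenesis and pyruvate entry, 1 rose and 3 fell. Pdk4, a pyruvate dehydrogenase kinase raised in fasting, had 3.84 and 3.41 RPKM in Hdac3cKO, against 8.59 and 11.0 RPKM in Hdac3flox/flox (log2 fold change −1.40, limma adjusted p = 0.00998). Pdk2, a further kinase of the same complex, had 11.2 and 10.3 RPKM in Hdac3cKO, against 14.4 RPKM in both Hdac3flox/flox libraries (log2 fold change −0.42, limma adjusted p = 0.0158). Pck2, the mitochondrial phosphoenolpyruvate carboxykinase, rose by a log2 fold change of 0.15 (limma adjusted p = 0.0341).

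Of 8 tested other glycolysis genes, 2 rose and 0 fell by limma (0 lower at an unadjusted p under 0.05 and 0 by limma voom). Minpp1, which can bypass phosphoglycerate mutase, had 53.9 and 54.3 RPKM in Hdac3cKO, against 44.2 and 42.8 RPKM in Hdac3flox/flox (log2 fold change 0.31, limma adjusted p = 0.00970). Of 11 other genes of sugar and monocarboxylate transport, Slc2a8, an intracellular glucose transporter, was called. It had 5.08 and 4.88 RPKM in Hdac3cKO, against 6.72 and 6.17 RPKM in Hdac3flox/flox. In this list 9 of 11 had a negative log2 fold change, 1 had a positive one and Slc2a10 was at −0.00. Of 7 genes of the pentose phosphate pathway limma called 0, with 3 higher at an unadjusted p under 0.05 and 3 by limma voom. Of 2 further phosphofructokinase 2 isoforms limma called 0, with 0 at an unadjusted p under 0.05 and 0 by limma voom.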

How the data were processed

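RNA of 2 Hdac3cKO and 2 Hdac3flox/flox mice was sequenced from Illumina TruSeq libraries. The authors deposited RPKM values, 1 column per library, for 28611 rows named by symbol. Bowtie 0.12.2 and the mm8 build stand in the submitters' processing notes, while 85.3% of the rows gave whole reads in all libraries at the exon length of GENCODE M21 on GRCm38 (relative tolerance 1e-06), so positions are given on GRCm38. The counting tool was not stated in the paper or labels, and RPKM is not corrected for composition between libraries. Whole reads were recovered at that length, as the smallest whole numbers for 4207 other rows, and not for 1 row. Recovered totals in genes were 18410354 and 17580180 reads in Hdac3cKO, against 18268485 and 18304747 in Hdac3flox/flox.

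The members and gene lists were chosen with earlier results of these data known. The genotypes were compared by limma 3.58.1 (R 4.3.3) on log2(RPKM + 0.1) (genotype only, trend, two-sided, 2 residual degrees of freedom), as the paper's methods name no test for the RNA sequencing. Genes that reached 0.5 RPKM in 2 or more libraries entered, and p-values were adjusted by Benjamini-Hochberg over 15528 genes. Fold changes are on the log2(RPKM + 0.1) scale, which understates those of low genes. P-values weigh each difference against the spread between these libraries, which limma partly borrows from all genes (2.5 prior degrees of freedom). Read ratios have exact 95% intervals (Clopper-Pearson), and as PCR duplicates are not marked these cover counting error only. Same-numbered libraries were not treated as pairs (correlation of deviations 0.076, 2 pairs). Full values are given for called members with a log2 fold change of at least 0.5 in size, the member of each role with the smallest p and members under the filter. Of the further pathway lists, up to 3 called genes with the smallest p are named, and 1 called gene is not reported here. BLAST 2.17.0 was used to find near-identical copies (95% identity over 50% of the shorter transcript). Alternatives were other pseudocounts, filters and scaling, limma voom on recovered reads, correction for GC content and exon length, a replicate block and each library left out, and, chosen after seeing the data, the reads of near-identical copies added. Tables were handled with Python 3.11.15, pandas 2.3.3 and scipy 1.17.1, and figures drawn with matplotlib 3.10.9.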

Additional observations from a re-analysis of the deposited data

How the results depend on the processing

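The log2 fold change of all 21 called members kept its sign under every alternative. The median over the members stayed between 0.10 and 0.19. With no filter on low values, where 28611 rows were tested, 410 genes were higher and 544 lower, with 5 members higher and 0 lower by limma (19 and 9 at an unadjusted p under 0.05, and 20 and 8 by limma voom on the filtered genes). Median-of-ratios scaling left 2 members lower. With limma voom, 1867 genes were higher and 2784 lower. The replicate block, which rests on shared numbers alone, gave 891 genes higher and 1252 lower, with 14 members higher and 2 lower. With the block and the correction for GC content and exon length, 3 members were lower. With 1 library left out, and the lone library assumed to vary like the other genotype, 2 to 531 genes were higher and 2 to 616 lower, with 0 to 8 members higher and 0 to 2 lower. All calls of members were lost without Hdac3cKO replicate 1 and without Hdac3cKO replicate 2. The cause of these moves was not tested. Among members not called, Vhl turned to 0.04 with median-of-ratios scaling, to 0.002 after that correction, with and without the replicate block, and to 0.02 without Hdac3cKO replicate 2. Pfkp, between −0.02 and 0.07 with 1 library left out, was below 0 without Hdac3cKO replicate 2 and without Hdac3flox/flox replicate 2, and Gpd1l was at −0.03 without Hdac3cKO replicate 2 and −0.01 without Hdac3flox/flox replicate 1. At 7 to 18 reads a library, the depth allows no statement on Ankrd37.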
